A study of Mus musculus with 6 samples.

Results

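The 10 genes described here encode secreted growth factors and co-receptors (neuropilins) of blood and lymphatic vessel growth, as transcribed by a mouse melanoma line. They are the VEGF family genes Vegfa, Vegfb, Vegfc and Pgf, the platelet-derived growth factor genes Pdgfa, Pdgfb and Pdgfc, the fibroblast growth factor gene Fgf2, and the neuropilin genes Nrp1 and Nrp2. They were chosen by name, and all 10 were measured, each by 1 transcript cluster (the set of probes that stands for a gene on this array), among 22180 named genes.

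Cells of the RET line, a mouse melanoma line of strain C57BL\6 per the labels, carried either 1 short hairpin RNA against Angpt2, Angpt2 shRNA-1 (3 cultures), or a non-targeting shRNA, called control shRNA (3 cultures). All cultures were kept for 24 h in high-glucose medium with serum, and each was read on its own Affymetrix Mouse Gene 2.0 ST array, which gives a normalized intensity per gene and no detection call. No second hairpin and no rescue were analysed, so effects of Angpt2 loss and of this hairpin or cell pool cannot be told apart. The control titles carry the word GFP, which is not interpreted here. The labels call the cultures biological replicates without saying how they were derived, so p-values measure the spread between these cultures. The small number of arrays limits the precision.

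VEGF-A binds the receptors Flt1 and Kdr on endothelial cells and is the main driver of vessel sprouting. VEGF-B and placental growth factor (Pgf) bind Flt1, and VEGF-C acts mainly through Flt4 on lymphatic endothelium. PDGF chains form dimers that act on Pdgfra and Pdgfrb of mesenchymal cells, FGF2 is a heparin-binding mitogen of endothelial cells and melanocytes, and neuropilins bind both VEGFs and class 3 semaphorins beside the signalling receptors. Tumour cells are a major source of such ligands, and Angpt2, the silenced gene, encodes angiopoietin-2, which acts on vessels together with VEGF-A.

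Angpt2 itself had intensities of 100.2, 122 and 122 on the Angpt2 shRNA-1 arrays, against 195, 372 and 326 on the control arrays. Its log2 fold change was -1.33 (SE 0.21). The limma adjusted p over all 22180 genes was 1.00, 0.0460 with the replicate number as a block, and 0.0116 without control replicate 1, where the log2 fold change was -1.61. Control replicate 1 was the control array with the least Angpt2. Under every other setting, and with any other array left out, the limma adjusted p was 0.211 or higher. Array medians over all clusters ran from 74.6 to 76.3. As a measure of background, olfactory receptor genes, taken as not expressed in melanoma cells, were used: on each array 95% of 1105 such genes lay below 73.3 to 77.7. Of 10 melanocyte markers, 9 lay above that level on all 6 arrays, among them Pmel, Tyrp1, Dct, Mlana and Mitf. Of 10 endothelial markers only Egfl7 did, and of 9 leukocyte markers only Cd68 did. Of 10 mural and fibroblast markers 5 did, namely Des, Abcc9, Col1a1, Col1a2 and Pdgfrb. Summed endothelial marker intensity ran from 747 to 799 on the Angpt2 shRNA-1 arrays and from 723 to 813 on the control arrays. Leukocyte markers summed to between 666 and 692 in Angpt2 shRNA-1 cells and between 635 and 742 in control cells. Melanocyte markers, a sum led by the brightest of them, summed to between 37512 and 40070 in Angpt2 shRNA-1 cells and between 38155 and 41935 in control cells. Their log2 fold changes were negative for 8 of 10, with a median of -0.07 and 0 called. Mitf, the master regulator of the lineage, had intensities of 2414, 2537 and 2502 in Angpt2 shRNA-1 cells, against 2908, 2970 and 2681 in control cells, with a log2 fold change of -0.20 (SE 0.08, limma adjusted p = 1.00).

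None of the 10 genes passed the test between Angpt2 shRNA-1 and control cells. At a limma adjusted p of 0.05 the count was 0 of 10 genes, with 0 of 22180 genes (0%) called over the whole table. At an unadjusted p under 0.05 it was again 0 of 10 genes, against 835 of 22180 (3.76%). The log2 fold change was positive for 4 and negative for 6 of them, with a median of -0.02, and the median of all genes was -0.01. Without Angpt2 shRNA-1 replicate 3, 2 of the 10 genes (Vegfa and Pgf) passed the unadjusted limma threshold, against 721 of 22180 genes (3.25%), and 0 passed the adjusted one. That array held the highest Vegfa (809) and Pgf (186) of its group, so leaving it out lowers the Angpt2 shRNA-1 mean of both. With any other single array left out, none of the 10 genes passed the unadjusted threshold. The 95% intervals reached a median of 0.23 on the log2 scale to each side. For most of these genes only small differences lie within the interval, and for Vegfa and Pgf larger ones do. Pdgfb, Pdgfc and Fgf2 lie at or near background, where a change is understated, so their narrow intervals do not bound a real change. What separated the genes was how far they varied between cultures of one group: Vegfa and Pgf varied widely, and Nrp1 hardly at all. In whole cultures, fewer cells that express a gene and less RNA per cell cannot be told apart.

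**Figure D1:**
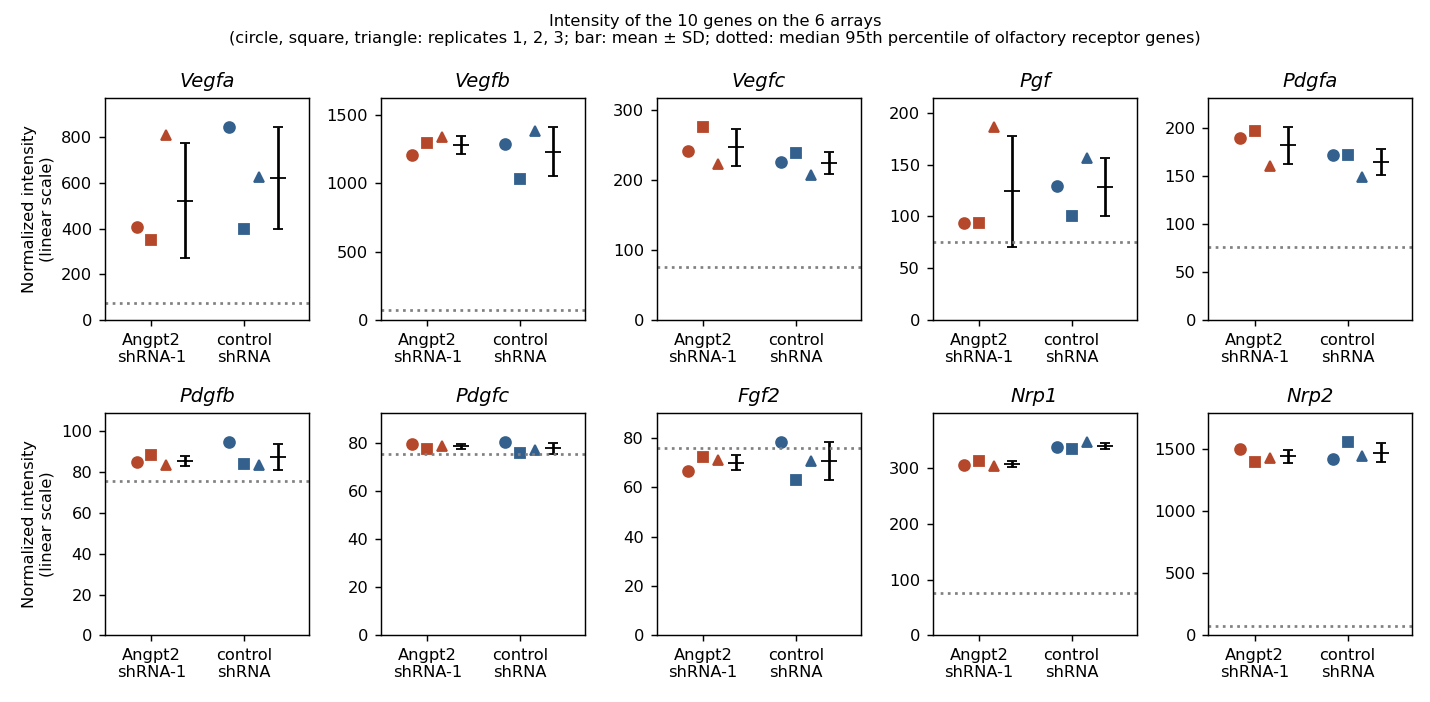
Normalized intensity (linear scale, from 0) of each of the 10 genes on the 3 Angpt2 shRNA-1 arrays (left) and the 3 control shRNA arrays (right). Symbols mark replicate numbers, black bars the mean ± SD, and the dotted line the median over arrays of the 95th percentile of olfactory receptor genes. Only for Nrp1 do the groups not overlap, and Pdgfc lies at the dotted line and Fgf2 at or below it on 5 of 6 arrays.

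Vegfa is the gene of the VEGF family with the best known control by oxygen and by nutrient stress. Its intensity was 409, 348 and 809 on Angpt2 shRNA-1 replicates 1, 2 and 3, and 842, 398 and 626 on control replicates 1, 2 and 3. Each group thus held low and high cultures, and the groups overlapped over most of their range. On the log2 scale Vegfa averaged 8.93 ± 0.65 in Angpt2 shRNA-1 cells and 9.21 ± 0.55 in control cells (SD, n = 3 arrays each). The log2 fold change was -0.29 (SE 0.33, 95% interval -1.04 to 0.46), a ratio of 0.819 with an interval of 0.487 to 1.38, and the limma adjusted p was 1.00. Within replicate numbers 1, 2 and 3 the differences were -1.04, -0.19 and 0.37, so 1 of 3 ran the other way. The value rested on single arrays. Leaving out 1 Angpt2 shRNA-1 array gave -0.16 (replicate 1), -0.05 (replicate 2) or -0.65 (replicate 3), and leaving out 1 control array gave -0.04 (replicate 1), -0.58 (replicate 2) or -0.25 (replicate 3). The limma adjusted p stayed between 0.919 and 1.00 in these 6 fits.

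The spread of Vegfa was among the widest in the table. Its intensity differed 2.32-fold between the lowest and highest Angpt2 shRNA-1 array and 2.12-fold between the control arrays. Its pooled SD within groups was 0.60 on the log2 scale, and 0.307% of all genes had a larger one. RefSeq lists 10 curated transcripts of Vegfa, and 1 cluster reads them together, so its splice forms, which differ in binding to heparin and neuropilin, are not separated here.

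Vegfa was the gene of the 10 whose log2 intensity ranged by at least 1 over the 6 arrays (1.27), and the genes with the most similar pattern were looked up by the root mean square (RMS) difference of log2 values, each centred on its mean over the 6 arrays. The closest was Ero1a, the oxidase that forms disulfide bonds in the endoplasmic reticulum and a known hypoxia-induced gene, at an RMS difference of 0.12. Its intensity was 1980, 1998 and 4687 on Angpt2 shRNA-1 replicates 1, 2 and 3, and 3991, 2258 and 3441 on control replicates 1, 2 and 3. As with Vegfa, the high arrays were Angpt2 shRNA-1 replicate 3 and control replicates 1 and 3. Mxi1, a MYC antagonist and HIF target, followed at 0.15, Arrdc3, an arrestin-like adaptor gene, at 0.18, Ccng2, which encodes cyclin G2, at 0.19, and Hpse, the heparanase that frees heparan-bound growth factors, at 0.19. None of the 5 passed the test, with log2 fold changes from -0.38 for Arrdc3 to -0.12 for Ccng2 and limma adjusted p = 1.00 for each. Ero1a and Mxi1 have a second cluster each, at -0.29 and -0.24, beside -0.25 and -0.21 for the clusters used. A second, dim cluster of Hpse (55.7 to 74.0) was at 0.12, beside -0.25.

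Vegfa is a known target of both HIF and ATF4, and the targets of each are described here array by array. Of 19 measured HIF target genes other than Vegfa, 16 had their highest intensity on Angpt2 shRNA-1 replicate 3. Relative to each gene's average over all arrays, the median HIF target stood at -0.16, -0.22 and 0.37 on Angpt2 shRNA-1 replicates 1, 2 and 3, and -0.06, -0.19 and 0.21 on control replicates 1, 2 and 3. The ATF4 target list holds 16 measured genes that answer amino acid shortage and endoplasmic reticulum stress, Atf4 itself included. Of these, 14 had their highest intensity on control replicate 1. So did 7 of 10 melanocyte markers and 6 of 9 leukocyte markers, the latter mostly at background, and 1 of 19 HIF targets. The share of all genes highest on either array was not counted, so these counts are not particular to the 2 lists. The median ATF4 target stood at 0.05, -0.39 and 0.22 on the Angpt2 shRNA-1 arrays and 0.90, -0.71 and -0.12 on the control arrays. Vegfa itself deviated by -0.39, -0.63 and 0.59 on the Angpt2 shRNA-1 arrays and by 0.65, -0.43 and 0.22 on the control arrays. Vegfa was high on the array where HIF targets stood highest and on the array where ATF4 targets stood highest. It was low on both replicate 2 arrays, where both lists were low. It was also low on Angpt2 shRNA-1 replicate 1 (-0.39), where the median ATF4 target stood at 0.05 and the median HIF target at -0.16. On control replicate 1, where Vegfa was highest, the HIF targets were not high (-0.06). Vegfa was left out of both lists, the HIF targets include Ero1a and Mxi1, and the part of either programme in its level was not tested.

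**Figure D2:**
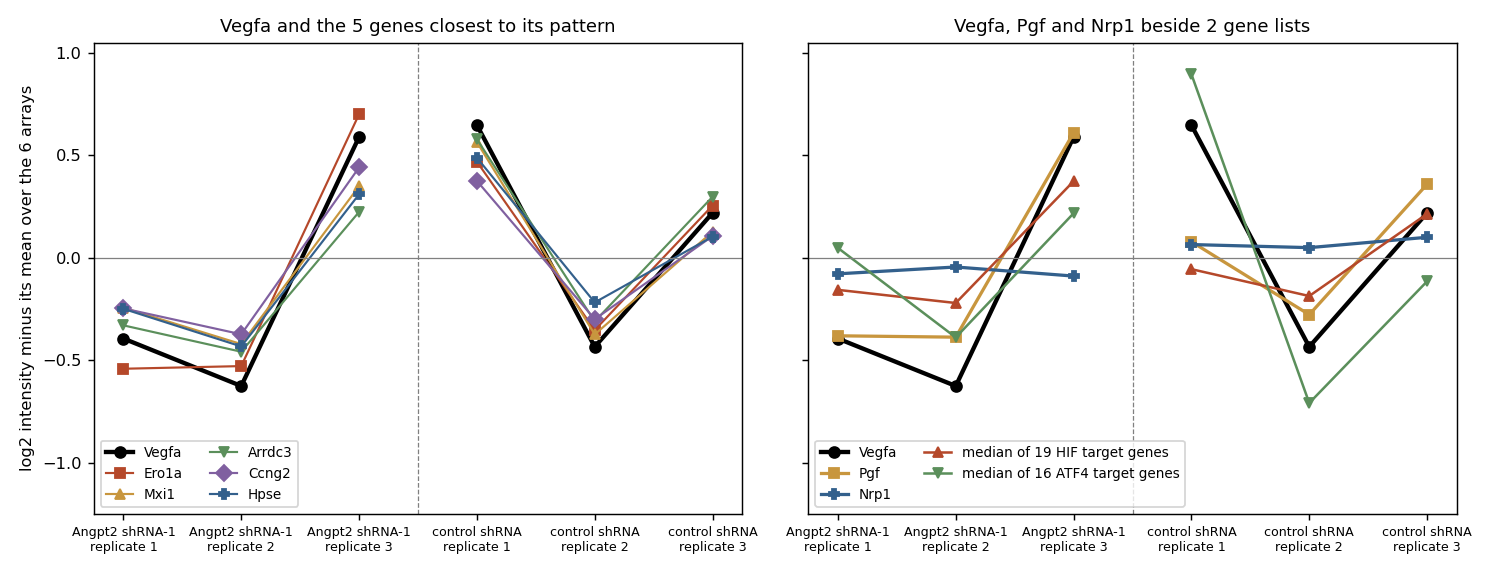
Log2 intensity minus its mean over the 6 arrays, for Angpt2 shRNA-1 arrays (left of the dashed line) and control arrays (right). The left panel shows Vegfa and the 5 genes nearest to it, which share highs on Angpt2 shRNA-1 replicate 3 and control replicate 1. The right panel shows Vegfa, Pgf and Nrp1 with the medians of 19 HIF targets and 16 ATF4 targets. Lines only join points of one gene or list, since replicates have no order.

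Transcripts of the oxygen-sensing machinery showed no difference that passed the test. Hif1a, the oxygen-regulated subunit of HIF, had intensities of 976, 1143 and 1288 on the Angpt2 shRNA-1 arrays and 1153, 893 and 1283 on the control arrays, with a log2 fold change of 0.04 (SE 0.15). A dimmer second cluster of Hif1a gave 0.26. HIF activity is set mainly by protein stability, which arrays do not read. Among 10 HIF and oxygen-sensing genes 0 were called in either direction and the median was -0.01, with Hif3a at -0.19 (SE 0.08, intensities 70.1 to 86.4, at the background level). Of 7 measured RNA-binding regulators of Vegfa mRNA 0 were called, and the largest difference was that of Khsrp, a decay-promoting protein, at -0.18 (SE 0.09).

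Pgf, the placental growth factor that binds Flt1, was the second most variable of the 10 genes. Its intensity was 93.8, 93.3 and 186 on Angpt2 shRNA-1 replicates 1, 2 and 3, and 129, 100.7 and 157 on control replicates 1, 2 and 3. Both replicate 3 arrays stood highest in their group, and the groups overlapped. The log2 fold change was -0.11 (SE 0.26, 95% interval -0.70 to 0.49), with -0.46, -0.11 and 0.25 within replicate numbers 1, 2 and 3. Leaving out 1 Angpt2 shRNA-1 array turned it to 0.06 (replicate 1 or 2) or made it -0.44 (replicate 3). Among the controls, leaving out replicate 2 gave -0.27 and leaving out replicate 3 gave 0.05. Its pooled SD of 0.46 was exceeded by 0.708% of genes. Pgf lay above the 95th percentile of olfactory receptor genes on all arrays but not above the 99th (98.8 to 109), so on its lowest arrays it was near background. On Angpt2 shRNA-1 replicate 3, where Pgf stood at 0.61 relative to its own average, HIF targets were highest. On control replicate 1, where ATF4 targets were highest, Pgf stood at 0.08. The part of either programme in the level of Pgf was not tested.

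Promoter sequence is shown because Vegfa and its nearest gene by pattern, Ero1a, are both known HIF targets. The 250 bases before the annotated start are from RefSeq (build GRCm38.p6, most upstream start where several are listed), which held 9 of the 10 genes. They were searched on both strands for the core of the HIF binding site, ACGTG or GCGTG. Capitals mark these letters on either strand. The genes shown are Vegfa, Ero1a, the other variable gene Pgf, and Nrp1, the gene whose groups did not overlap.
Vegfa, chr17:46032378-46032627, minus strand: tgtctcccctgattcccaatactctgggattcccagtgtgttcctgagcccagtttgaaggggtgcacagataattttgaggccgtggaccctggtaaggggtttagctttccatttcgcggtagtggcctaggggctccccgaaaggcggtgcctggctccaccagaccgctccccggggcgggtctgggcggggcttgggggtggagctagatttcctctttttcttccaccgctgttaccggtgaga
Ero1a, chr14:45318573-45318822, minus strand: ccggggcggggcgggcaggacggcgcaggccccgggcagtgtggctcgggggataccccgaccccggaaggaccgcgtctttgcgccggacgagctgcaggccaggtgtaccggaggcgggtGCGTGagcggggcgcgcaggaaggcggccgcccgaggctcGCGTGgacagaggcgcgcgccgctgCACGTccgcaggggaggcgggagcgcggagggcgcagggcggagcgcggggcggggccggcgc
Pgf, chr12:85177314-85177563, minus strand: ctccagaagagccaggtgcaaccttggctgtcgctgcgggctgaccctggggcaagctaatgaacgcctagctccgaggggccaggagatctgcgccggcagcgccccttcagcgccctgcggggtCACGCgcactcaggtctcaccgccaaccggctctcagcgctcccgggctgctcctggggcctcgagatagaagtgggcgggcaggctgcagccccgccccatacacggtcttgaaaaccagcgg
Nrp1, chr8:128358823-128359072, plus strand: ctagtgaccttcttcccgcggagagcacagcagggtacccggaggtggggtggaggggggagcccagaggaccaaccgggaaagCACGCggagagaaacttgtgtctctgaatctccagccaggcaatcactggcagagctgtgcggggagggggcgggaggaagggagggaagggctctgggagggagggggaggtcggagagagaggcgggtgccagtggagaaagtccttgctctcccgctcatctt

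The Vegfa window held neither letter string. The hypoxia response element known for this gene lies farther upstream, so the window does not bear on it. Ero1a held ACGTG at 1 position and GCGTG at 2, Pgf held GCGTG once and Nrp1 held GCGTG once. Of the 9 genes with a window 6 held either string. Of the 5 genes nearest to Vegfa in pattern 4 did, and Mxi1, the second nearest, held neither. Both counts stand against 38.6% of 32851 windows of the same length. The core GGGCGG of a GC box, bound by SP1-type factors, was in 8 of the 9 windows, 2 times in that of Vegfa, against 32.7% of all windows. The ATF4 element TGATGNAA was in 0 of the 9, against 3.45% of all windows. These 9 windows are rich in G and C, from 50.8% for Pdgfc to 76.4% for Vegfb. The Ero1a window is richer still, at 80.8%, and the other windows were not matched for that. A match is no evidence of binding.

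The other VEGF ligands varied less between cultures, and neither passed the test. Vegfb, the Flt1 ligand linked to heart and fat metabolism, had intensities of 1206, 1293 and 1337 on the Angpt2 shRNA-1 arrays, against 1287, 1032 and 1381 on the control arrays. The groups overlapped, control replicate 2 was the lowest array, and the log2 fold change was 0.06 (SE 0.12, 95% interval -0.20 to 0.32). Without control replicate 2 it was -0.06. Vegfc, the lymphatic growth factor, had intensities of 241, 276 and 223 on Angpt2 shRNA-1 replicates 1, 2 and 3, and 226, 239 and 207 on control replicates 1, 2 and 3. Its log2 fold change was 0.14 (SE 0.10, 95% interval -0.10 to 0.37, limma adjusted p = 1.00). The difference was positive within all 3 replicate numbers, at 0.09, 0.21 and 0.11, while the groups overlapped. It was 0.05 without Angpt2 shRNA-1 replicate 2, the array with the most Vegfc.

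Among the PDGF chains, only Pdgfa and Pdgfb were above the background level on all arrays. Pdgfa, whose product acts on Pdgfra of neural crest-derived and other mesenchymal cells, had intensities of 189, 196 and 160 on Angpt2 shRNA-1 replicates 1, 2 and 3, and 172, 172 and 149 on control replicates 1, 2 and 3. Its log2 fold change was 0.14 (SE 0.11, 95% interval -0.10 to 0.39), with 0.14, 0.19 and 0.10 within the 3 replicate numbers. The groups overlapped through replicate 3, the lowest array of Pdgfa in each group, and without Angpt2 shRNA-1 replicate 3 the value was 0.23. For Vegfc, too, the replicate 3 array was the lowest of each group, the opposite of Pgf, for which it was the highest.

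Pdgfb, which recruits pericytes to new vessels, had dim signals of 85.0, 88.3 and 83.5 in Angpt2 shRNA-1 cells and 94.7, 84.1 and 83.4 in control cells. Its log2 fold change was -0.03 (SE 0.09), and the sign turned without control replicate 1 (0.03). Pdgfc, whose product must be cleaved before it binds Pdgfra, was at 79.7, 77.4 and 79.0 in Angpt2 shRNA-1 cells and 80.5, 75.9 and 77.2 in control cells, above the olfactory receptor level on 5 of 6 arrays, with a log2 fold change of 0.02 (SE 0.08). Fgf2, a factor that leaves cells without a signal peptide, was at 66.4, 72.2 and 71.0 in Angpt2 shRNA-1 cells and 78.2, 62.9 and 70.7 in control cells. It exceeded the olfactory receptor level on 1 array, control replicate 1, and its log2 fold change was -0.01 (SE 0.10). Signals of Pdgfc and Fgf2 cannot be told from background, and a real change of such genes would be understated on this scale.

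Nrp1, the co-receptor for VEGF-A and semaphorin 3A, was the gene of the 10 whose groups did not overlap. Its intensity was 306, 313 and 304 on the Angpt2 shRNA-1 arrays, against 338, 334 and 346 on the control arrays. Every Angpt2 shRNA-1 array lay below every control array, as it did for 5.48% of all genes. In the other direction, all Angpt2 shRNA-1 arrays above all control arrays, the count was 0 of 10, against 3.53% of all genes. On the log2 scale Nrp1 averaged 8.26 ± 0.02 in Angpt2 shRNA-1 cells and 8.41 ± 0.03 in control cells (SD over 3 arrays per group). The log2 fold change was -0.14, a ratio of 0.906. The difference was -0.14, -0.09 and -0.19 within replicate numbers 1, 2 and 3. All 3 are negative by necessity, since the groups do not overlap.

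The difference of Nrp1 exceeded the SD of either group but did not pass the test. Its pooled SD was 0.02, and 99.6% of genes had a larger one. With its own spread alone the standard error would be 0.02. The limma standard error, which draws each gene's spread toward that of all genes, was 0.08, with a 95% interval of -0.32 to 0.03, an unadjusted p of 0.0969 and an adjusted p of 1.00. An exact permutation of the 6 arrays gave a two-sided p of 0.1. No lower value is possible with groups of 3, and any gene whose groups do not overlap reaches it. With 1 array left out the log2 fold change ran from -0.16 to -0.13, where the lack of overlap fixes the sign in advance. Under 9 other settings it ran from -0.15 to -0.13. RefSeq lists 3 curated transcripts of Nrp1, and soluble and membrane forms are read together.

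Nrp2, the co-receptor for VEGF-C and semaphorin 3F, was also steady between cultures and showed no such separation. Its intensity was 1498, 1396 and 1427 on the Angpt2 shRNA-1 arrays, against 1417, 1554 and 1442 on the control arrays. The groups overlapped, with a log2 fold change of -0.03 (SE 0.08, 95% interval -0.22 to 0.16). A difference of Nrp1 that is distinct from that of Nrp2 was not tested.

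**Figure D3:**
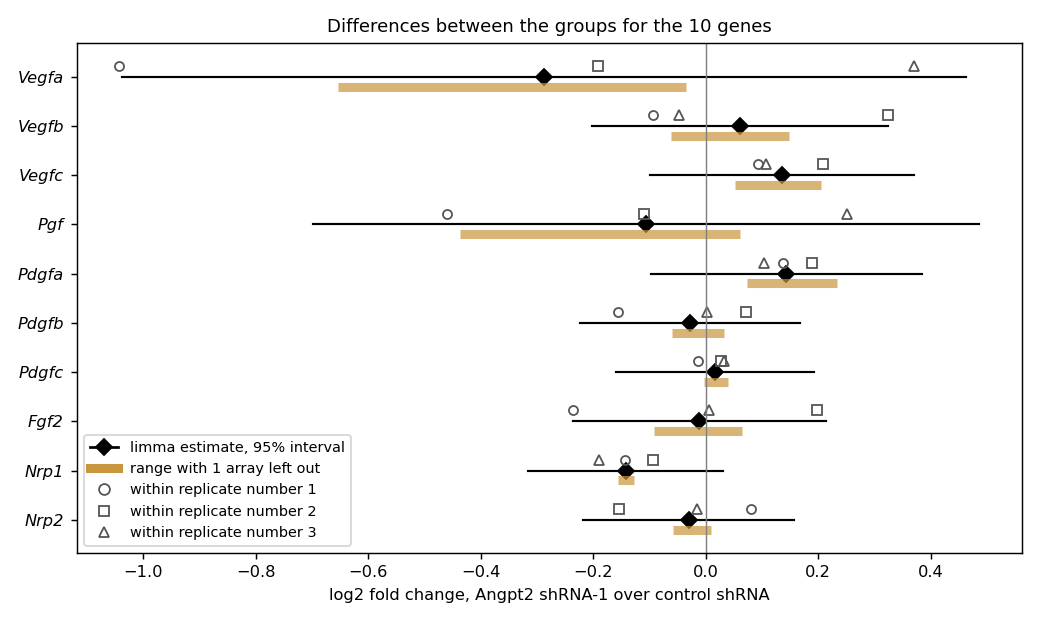
Log2 fold change of Angpt2 shRNA-1 over control shRNA for the 10 genes. Diamonds and lines are limma estimates with 95% intervals, bands the range when 1 of the 6 arrays is left out, and open symbols the difference within each replicate number. Every interval includes 0, the widest is that of Vegfa (-1.04 to 0.46), and Nrp1 has the narrowest band (-0.16 to -0.13).

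Of 10 receptors for these ligands 4 lay above the olfactory receptor level on all arrays (Pdgfra, Pdgfrb, Fgfr3 and Fgfrl1). Only 2 of them, Pdgfrb and Fgfrl1, lay above the 99th percentile of olfactory receptor genes on all arrays. In either direction 0 of 10 were called. Kdr (69.9 to 79.7) and Flt1 (70.4 to 83.1), the VEGF-A receptors, were near that level, and Flt4 (69.5 to 100.4), the VEGF-C receptor, exceeded it on 4 of 6 arrays. Pdgfrb, the receptor for PDGF-B, had intensities of 270.4, 248 and 249 on the Angpt2 shRNA-1 arrays, against 215, 225 and 246 on the control arrays. The groups did not overlap, though their closest arrays were at 248 and 246, and the log2 fold change was 0.16 (SE 0.09, limma adjusted p = 1.00). All Angpt2 shRNA-1 arrays lay above all control arrays for 1 of 10 receptors, against 3.53% of all genes. Pdgfrb also marks mural cells and fibroblasts. The other 9 markers of these cells summed to between 813 and 818 in Angpt2 shRNA-1 cells and between 759 and 836 in control cells, so these sums overlapped. All 10 markers, Pdgfrb included, summed to between 1061 and 1083 in Angpt2 shRNA-1 cells and between 984 and 1051 in control cells, without overlap. Pdgfrb is the brightest of the 10 on each array, and the sums separate only once it is added. Relative to each gene's average over all arrays, the median of the 10 markers, Pdgfrb included, stood at 0.02 to 0.03 in Angpt2 shRNA-1 cells. In control cells it stood at -0.08 to -0.00059. A difference in the share of such cells was not tested. The 10 receptors had a median of 0.02 and a range from -0.12 for Pdgfra to 0.16 for Pdgfrb.

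Other genes around these ligands were likewise not called. Of 10 further ligands of the 3 families, 1 (Fgf1) was above the olfactory receptor level on all arrays, and the largest difference was that of Fgf18 at 0.33 (SE 0.11, intensities 85.0, 106.5 and 94.8 on the Angpt2 shRNA-1 arrays, against 68.7, 82.0 and 76.9 on the control arrays). Of 13 semaphorins, plexins and the neuropilin adaptor Gipc1, 0 were called, the median was 0.02, and Sema3c, a guidance ligand of neuropilins, was at -0.21 (SE 0.17). Of 14 heparan sulfate and FGF-binding genes 0 were called, the median was 0.00030, and Hpse had the largest difference. Of 10 proteases and cofactors that process VEGF-C and PDGF chains 0 were called, with Pcsk6, a proprotein convertase, at -0.12 (SE 0.12). Of 8 measured secreted inhibitors of angiogenesis 0 were called, with Timp3, a metalloprotease inhibitor that also blocks Kdr, at -0.33 (SE 0.19). Of the 19 HIF targets 0 were called (median 0.04), with Pfkfb3, a glycolytic regulator, at 0.26 (SE 0.21). Of the 16 genes of the ATF4 target list, Atf4 itself included, 0 were called (median -0.12). The largest difference was that of the cystine transporter gene Slc7a11, at -0.61 (SE 0.58), which was 0.20 without control replicate 1. The median of all genes, for comparison, was -0.01.

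**Figure D4:**
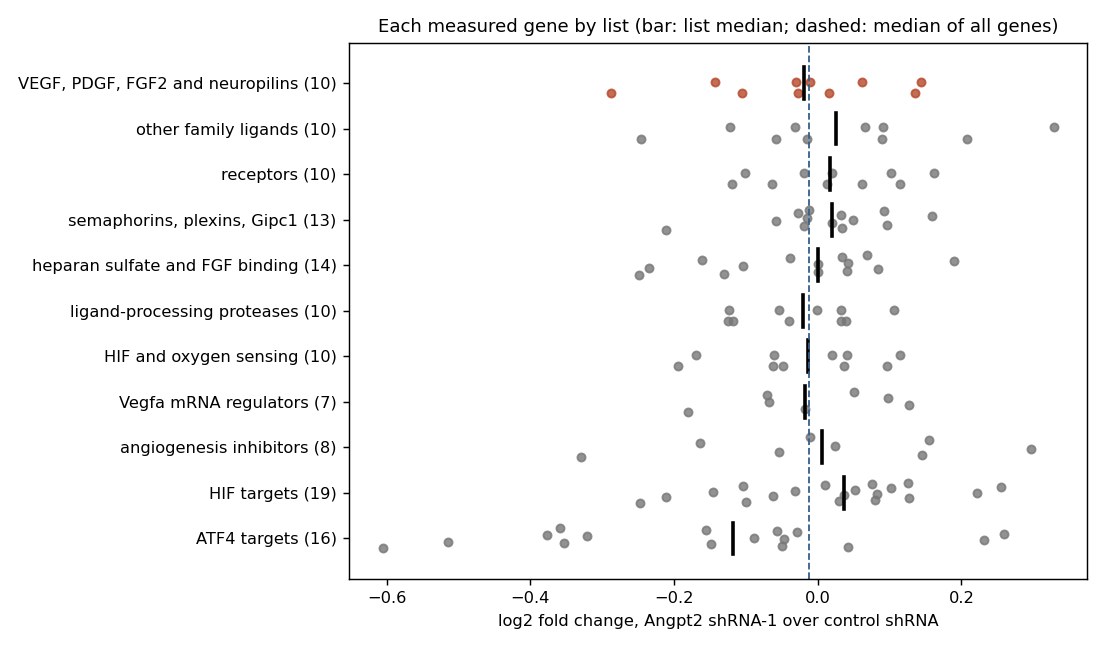
Log2 fold change of Angpt2 shRNA-1 over control shRNA for each measured gene of 11 lists, with the number measured in brackets. Black bars are list medians and the dashed line is the median of all genes (-0.01). List medians lie between -0.12 (ATF4 targets) and 0.04 (HIF targets).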

How the data were processed

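RNA of 6 cultures (3 Angpt2 shRNA-1, 3 control shRNA, grouped by the genotype labels) was read on 1 array each, from 100 ng of total RNA per the labels' protocols. The authors deposited 1 normalized intensity per array and transcript cluster, linear in scale; the background correction, probe summary and normalization are not given in the sources used here. Of 41345 clusters 40425 were complete, and 23521 had exactly 1 symbol in the platform annotation. For the 1082 genes with several clusters the one with the highest mean was used, leaving 22180 genes. Intensities were taken to log2 with no pseudocount, filter or further normalization and compared with limma 3.58.1 (R 4.3.3; lmFit, eBayes, two-sided, Benjamini-Hochberg over all genes, threshold 0.05). The fit was tested on simulated data. Exact permutation tests ran over the arrays.

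The genes and lists were chosen with earlier results of these data known. Named are the 10 genes, Angpt2, Hif1a, the receptors, for each list the called genes or that with the largest absolute log2 fold change, and the 5 genes nearest in pattern. Pmel, Tyrp1, Dct, Mlana, Egfl7, Cd68, Des, Abcc9, Col1a1, Col1a2, Fgf1, Gipc1 and Atf4 were named after their values were seen. A few genes of the lists were not analysed here, and counts are of the measured ones. Slide and scan batches are not given in the sources used here.

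Printed errors, intervals and p-values come from a fit with no block for the replicate number. A fit with that block was an alternative. The numbers were judged to pair the arrays from the correlations below, which are low, and that pairing was not tested. After group means were removed, same-numbered arrays had correlations of 0.13, 0.21 and 0.14 over genes. For each Angpt2 shRNA-1 array this was its highest correlation with any control array. The reverse was not looked up for the control arrays, and the labels give no source of this pairing. The other alternatives were quantile normalization, median centring, genes above the median level, the mean of all clusters, all complete clusters, trend and robust options, array weights, a pseudocount of 16, and leaving out each array.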

Additional observations from a re-analysis of the deposited data

How the results depend on the processing

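The count of called genes among the 10 was 0 under each of the 9 alternatives and with each array left out. Over all genes it was 2 with the replicate number as a block (Angpt2 and Pld4), 1 with trend and robust options (Pld4), and 0 to 2 with 1 array left out (1 without control replicate 1, Angpt2; 2 without control replicate 2, Plekho1 and Btbd35f12). The block changed no call of the 10 genes, and narrowed the interval to -0.79 to 0.21 for Vegfa and -0.41 to 0.20 for Pgf. It widened the interval of Nrp1 to -0.34 to 0.06, and also those of Pdgfb, Pdgfc, Fgf2 and Nrp2. The number above background was 8 with the 95th percentile of olfactory receptor genes, 6 with the 99th and 8 after quantile normalization. The number of genes at an unadjusted p under 0.05, 835 of 22180, was 1275 without control replicate 3. It was 330 among genes above the median level, and 1668 among all 40425 complete clusters. These last counts come from fits to fewer genes and to more rows, so they do not compare directly with 835.

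Among the 10 genes the direction held in 87 of 87 fits other than leaving out an array (Pdgfb, Pdgfc and Fgf2 lie outside the fit to genes above the median level) and in 51 of 60 with an array left out. With an array left out the log2 fold change ranged from -0.0612 to 0.15 for Vegfb, -0.44 to 0.0614 for Pgf, -0.0596 to 0.0317 for Pdgfb, -0.0022 to 0.0395 for Pdgfc, -0.0913 to 0.0652 for Fgf2 and -0.0588 to 0.0100 for Nrp2. For other named genes it ranged from -0.45 to 0.0182 for Mxi1, -0.37 to 0.0371 for Ccng2, -0.0302 to 0.0640 for Kdr, -0.17 to 0.10 for Flt4, -0.0090 to 0.21 for Fgfr1, -0.0482 to 0.11 for Fgfrl1, -0.11 to 0.15 for Hif1a and -1.04 to 0.20 for Slc7a11. With array weights Kdr was at -0.0037 and Hif1a at -0.0176, and Pgf, whose direction held, at -0.24. The causes were not tested. Dim signals limit Pdgfc, Fgf2 and most receptors.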
